A study of Mus musculus with 23 samples.

Results

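The hippocampi described here are the 5 offspring libraries with the highest Fos and the 5 with the lowest, 10 of the 15 offspring libraries and of the 23 libraries in all. They were chosen by the normalized count of Fos in the 15 offspring, whatever the exercise history of the father, and the middle 5 were left out. All animals were wild-type male C57BL/6 mice, an inbred laboratory strain. The 15 offspring, killed at 5.5 months, were sired by fathers given 40 minutes of daily treadmill running through 6 weeks (7 libraries) or by fathers kept without exercise (8 libraries). The 8 fathers, killed at 7 months, comprised 4 exercised and 4 sedentary animals. Fathers were used for breeding, and both generations had been tested in hippocampus-dependent tasks before death, and how long before is not given in the sources used here. Libraries are written OS and OE for the offspring of sedentary and exercised fathers and SF and EF for sedentary and exercised fathers, with the replicate number. The 5 high libraries were OS6, OE4, OS5, OS2 and OE6, and the 5 low ones were OE5, OE7, OS3, OS1 and OE1. The high set thus held 3 offspring of sedentary fathers and 2 of exercised fathers, and the low set held 2 and 3.

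Fos encodes a transcription factor of the AP-1 family and is an immediate early gene. Such genes are switched on when synaptic calcium entry activates kinases that act on factors already bound at their promoters, such as CREB at cyclic AMP response elements (CRE) and serum response factor at CArG boxes. They need no new protein synthesis, and their mRNAs are short-lived, so their level in brain tissue is widely read as a trace of recent neuronal activity. The first wave contains transcription factors, effectors such as Arc and feedback regulators such as Dusp1, and a later wave contains secreted peptides and synaptic proteins such as Bdnf.

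The upstream sequence of 3 of these genes is shown, because half-sites of the CRE can be seen in all 3 and a CArG box in Egr2, and none of the 3 holds a full CRE. Sequences are those of RefSeq on build GRCm38.p6, 250 bases upstream of an annotated start site, 5′ to 3′ on the strand of the gene. Capitals mark a half-site (TGACG or, on the other strand, CGTCA) of the CRE (TGACGTCA) or a CArG box. The windows lie at chr12:85473640-85473889 for Fos, chr15:101266596-101266845 for Nr4a1 and chr10:67537619-67537868 for Egr2, all on the plus strand. The Fos window ends 1 base before the annotated gene, and the other two lie between exons of longer annotated transcripts of their own gene.
Fos: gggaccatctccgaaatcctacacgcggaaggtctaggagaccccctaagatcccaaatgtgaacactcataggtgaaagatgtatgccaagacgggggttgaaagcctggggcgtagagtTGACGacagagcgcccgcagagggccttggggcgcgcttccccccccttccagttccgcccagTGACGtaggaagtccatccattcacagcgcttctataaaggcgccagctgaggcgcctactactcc
Nr4a1: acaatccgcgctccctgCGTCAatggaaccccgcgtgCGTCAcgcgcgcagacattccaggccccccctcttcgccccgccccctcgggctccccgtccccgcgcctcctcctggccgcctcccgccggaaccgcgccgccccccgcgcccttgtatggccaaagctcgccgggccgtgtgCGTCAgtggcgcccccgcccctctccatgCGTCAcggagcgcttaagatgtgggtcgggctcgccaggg
Egr2: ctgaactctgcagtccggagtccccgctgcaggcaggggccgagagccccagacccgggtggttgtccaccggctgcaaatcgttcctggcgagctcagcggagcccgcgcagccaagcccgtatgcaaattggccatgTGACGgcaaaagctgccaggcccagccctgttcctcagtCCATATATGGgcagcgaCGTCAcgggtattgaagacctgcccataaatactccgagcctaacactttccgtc

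The letters were searched on both strands in windows of 250 bases before to 50 after each start site. A CRE holds 2 overlapping half-sites, so a window with a CRE also counts as one with a half-site. Of Fos and the 7 genes described next, 5 had a window that was searched: Fos, Egr2, Npas4, Nr4a1 and Dusp1. A gene was counted if any of its windows held the letters. A half-site was found in 5 of these 5 genes and in 23% of the 27025 genes with a window. The Egr2 windows that begin at 67535249 and 67537316 hold none. The full CRE was found in 1 of the 5, Dusp1, against 2.03% of all genes, and a CArG box in 1, Egr2, which has 5 windows, against 1.81%. Among the 49 early and delayed activity-regulated genes with a window, 33 held a half-site, 9 a CRE and 3 a CArG box. These are letters in a sequence, and binding was not measured.

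The Fos values chose the libraries and are given as a description. Fos stood at a normalized count of 1650.06 in OS6, 1498.17 in OE4, 1280.2 in OS5, 1112.37 in OS2 and 1079.66 in OE6. In the low libraries it stood at 489.92 in OE5, 392.02 in OE7, 315.06 in OS3, 204.3 in OS1 and 198.62 in OE1. The means were 1324 ± 247 and 320 ± 125 (SD, n = 5 each), a ratio of 4.14, and the highest offspring library was 8.31 times the lowest. The order had no gap at its limits, because the library just outside the high set (OE2) stood at 1036.69 and that just outside the low set (OS7) at 496.66. The fathers lay between 197.79 and 416.32, close to the range of the low offspring.

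Arc, which encodes a synaptic protein that drives AMPA receptor removal, and Egr1, a zinc finger transcription factor, are the other 2 markers of activity used to check the ordering. Arc stood at 10468, 10417, 10134, 8570 and 8679 in the high libraries, in the order above, and at 4836, 4641, 3594, 3585 and 2756 in the low ones. Egr1 stood at 11008, 9300, 11327, 7767 and 8135 in the high libraries and at 5791, 5706, 4703, 5218 and 4759 in the low ones. For both genes the lowest high library exceeded the highest low one.

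**Figure D1:**
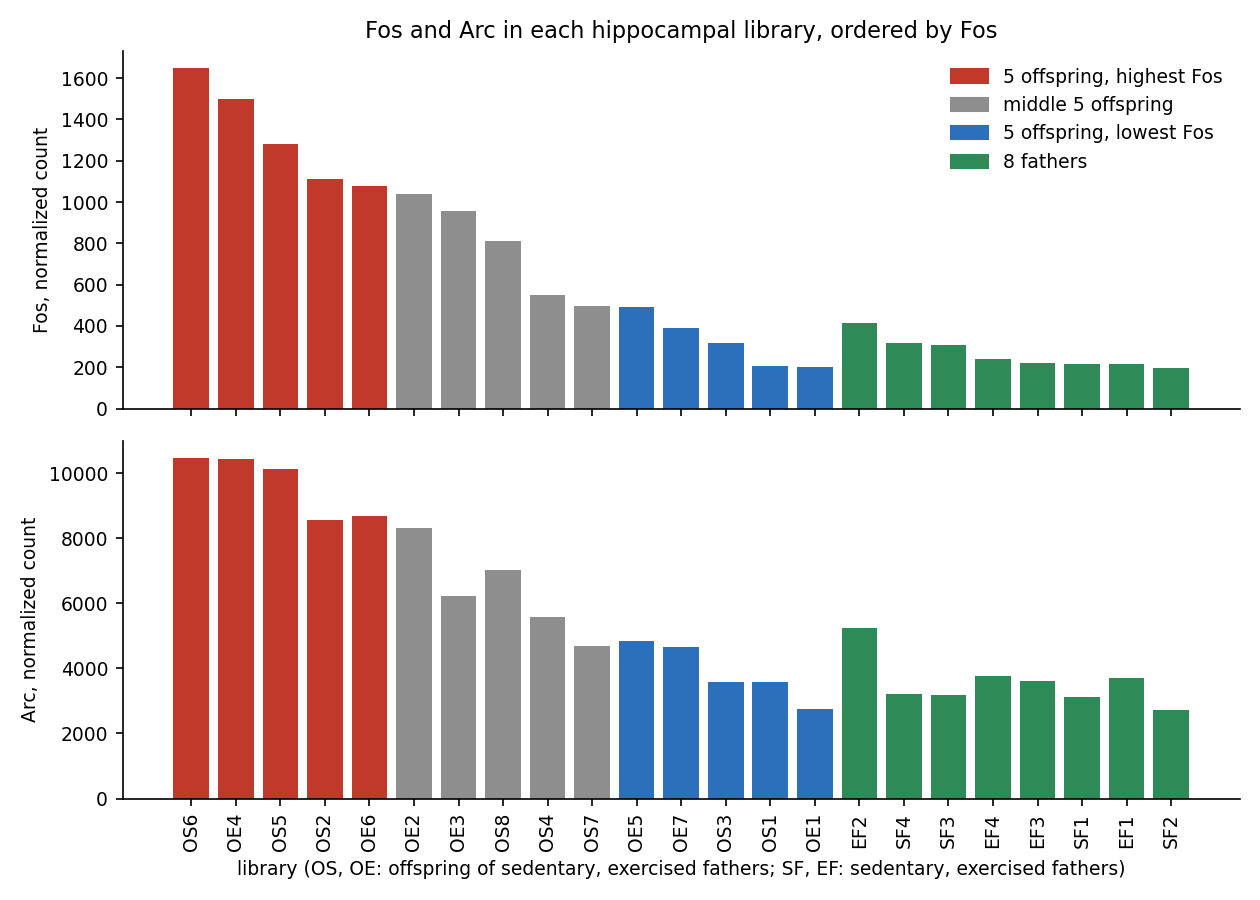
Bars give the normalized count of Fos (top) and Arc (bottom) in each of the 23 libraries, ordered by Fos within 4 sets: the 5 highest offspring, the middle 5, the 5 lowest and the 8 fathers. Fos declines from 1650.06 to 198.62 in the offspring, with no gap at the limits of the sets, and Arc follows nearly the same order.

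Recovered reads per library ran from 33667580 to 46372203 in the high set and from 37696777 to 46354537 in the low set, and 23580 to 24456 against 23568 to 24480 genes had a read. In 3 pairs of offspring (OE1 and OE2, OE3 and OE4, OE5 and OE6) the titles differ in the last character alone, and for slopes on Fos over the 15 offspring limma put the correlation within these pairs at 0.56. The only pair with both libraries among the 10 is OE5 and OE6, on opposite sides of the contrast, and OE3 and OE6 carry the same barcode label. Whether such libraries are littermates, or each library a separate animal, is not stated in the labels. The p-values below therefore measure the spread among these libraries, part of which may be technical. In bulk tissue, fewer cells of a type and less RNA per cell cannot be told apart.

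The next question was which genes, across all genes, were ordered with Fos. In the high Fos hippocampi limma called 7 genes higher and none lower. They were 4 early transcription factors (Egr2, Npas4, Nr4a1, Egr1), the synaptic effector Arc, and 2 feedback regulators of signalling (Dusp1, Sik1). Of 17496 genes tested with limma on log2(normalized count + 1), 7 passed a Benjamini-Hochberg adjusted p of 0.05, 0.04% of those tested, with adjusted p from 0.00328 to 0.0322. Fos ordered the libraries, so these calls describe which genes share its order and test no treatment. Among genes with a negative difference, the smallest limma adjusted p was 0.484. At an unadjusted p of 0.05 there were 428 higher genes (2.45%) and 342 lower ones (1.95%), and the groups did not overlap for 97 higher genes (0.554%) and 74 lower ones (0.423%). At an unadjusted p of 0.05 in either direction this makes 4.4% of all genes. edgeR on the recovered reads called 7 higher and none lower, DESeq2 called 29 higher and 1 lower (Gvin1), and limma with no filter on low values called 1 lower (Gm12473). The median gene differed by 0.004 on the log2 scale, and the median size of a difference, 0.065, was below the median standard error of 0.09.

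Egr2, a zinc finger transcription factor induced by strong stimulation, had the largest difference of the 7. Its normalized count was 428, 289, 342, 193 and 193 in the high libraries OS6, OE4, OS5, OS2 and OE6, and 67.4, 75.9, 42.3, 34.65 and 28.8 in the low libraries OE5, OE7, OS3, OS1 and OE1. Every high library was above every low one, and the 3 highest values came from the 3 libraries with the most Fos. The log2 difference was 2.54 ± 0.29 (SE; limma adjusted p = 0.00716). The gene lies on chromosome 10 between 67535475 and 67542188 on the plus strand of GRCm38.

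Npas4, a neuron-specific factor that is induced by calcium entry and regulates inhibitory synapses, stood at 967, 933, 587, 612.7 and 635 against 341, 317, 282, 171 and 284. The groups did not overlap, and OS6 and OE4 stood apart from the other 3 high libraries. The log2 difference was 1.42 ± 0.20 (SE; limma adjusted p = 0.0306). Npas4 lies on chromosome 19 between 4984355 and 4990316 on the minus strand.

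Nr4a1, an orphan nuclear receptor, stood at 3437, 3183, 3549, 2895 and 2795 against 1958, 1965, 1425, 1577 and 1429, with a log2 difference of 0.93 ± 0.11 (SE; limma adjusted p = 0.00716). Its 4 half-sites are in the sequence above, and the annotated gene spans 101254269 to 101274795 on the plus strand of chromosome 15. Egr1, with the values given above, differed by 0.85 ± 0.11 (SE; limma adjusted p = 0.0159).

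Arc, with the values given above, had means of 9654 ± 949 in the high set and 3882 ± 855 in the low set (SD, n = 5 each). The log2 difference was 1.34 ± 0.13 (SE; limma adjusted p = 0.00328). The gene lies on chromosome 15 between 74669083 and 74672570 on the minus strand.

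Dusp1, a phosphatase that switches off mitogen-activated protein kinases, stood at 1384, 1252, 907, 1157 and 1004 against 648, 706, 536, 427 and 541. The groups did not overlap, and the log2 difference was 1.00 ± 0.14 (SE; limma adjusted p = 0.0322). Dusp1 lies on chromosome 17 between 26505590 and 26562128 on the minus strand and overlaps Ergic1 on the opposite strand and pseudogenes on either strand. Whether the authors' counting used the strand is not given in the sources used here, so the assignment of its reads is uncertain.

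Sik1, a kinase that restrains CREB by acting on its coactivators, stood at 666, 803, 892, 760 and 824 against 465, 423, 485, 473 and 450. Its low libraries lay within a narrow band, and the log2 difference of 0.77 ± 0.08 (SE; limma adjusted p = 0.00328) came with the smallest standard error of the 7. The gene lies on chromosome 17 between 31844250 and 31855804 on the minus strand.

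**Figure D2:**
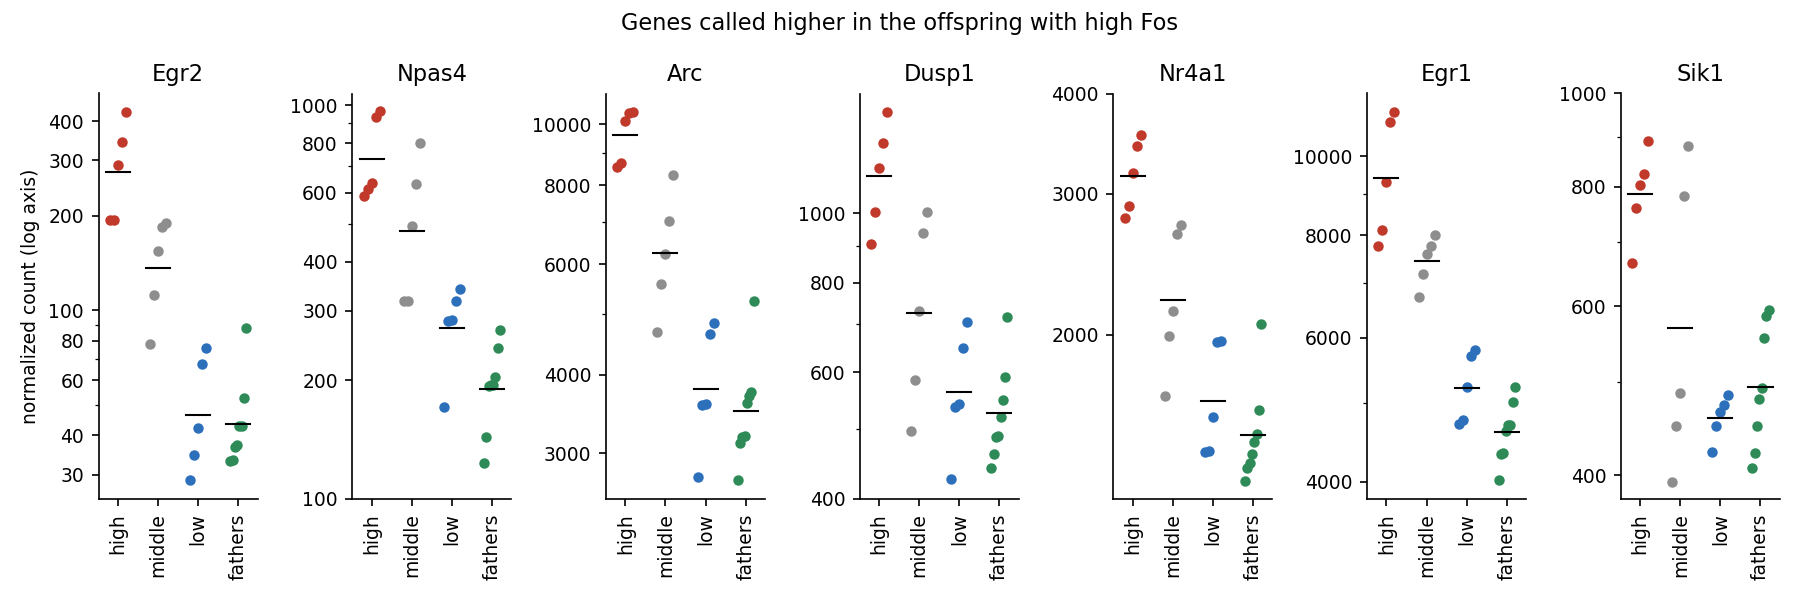
Each panel gives 1 gene, with the normalized count on a log axis and 1 point per library in the 5 high, middle 5 and 5 low Fos offspring and the 8 fathers, and a bar at the geometric mean. High and low libraries do not overlap for any of the 7 genes, the middle libraries range widely, and the fathers overlap the low libraries in every panel and reach no high library.

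Leaving out OS6, OE4, OS3 or OE1 took the calls from 7 to 4, with Egr1, Npas4 and Dusp1 lost, and leaving out OE7 gave 10. Sik1, Arc, Nr4a1 and Egr2 were called without any 1 of the 10 libraries. Without OS2 or without OE6, Npas4 and Dusp1 were lost and 6 genes were called in all.

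Of 20 early transcription factors tested besides Fos, 20 had a higher mean in the high libraries and 4 were called by limma (against 0.04% of all genes), with a median log2 difference of 0.49 against 0.004 for all genes, of which 52.0% were higher. High and low libraries did not overlap, with the high ones above, for 8 of the 20, against 0.554% of all genes. DESeq2 called 8 of the 20 higher, against 0.166% of all genes. Junb, the AP-1 partner of Fos, stood at 4042, 3890, 3868, 3290 and 3261 against 2682, 2482, 1852, 1557 and 1653, a log2 difference of 0.87 ± 0.14 (SE; limma adjusted p = 0.0884). Fosb differed by 0.93 ± 0.15 (adjusted p = 0.0884 by limma), Egr4 by 0.82 ± 0.13 (0.0865) and Ier2 by 0.95 ± 0.15 (0.0884), all as log2 differences with SE and with no overlap between the groups. Junb, Fosb, Egr4 and Ier2 were all called by DESeq2 (adjusted p from 2.92e-06 to 1.05e-05) and by the limma slope over all 15 offspring described below.

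Other members of the same families overlapped between the groups. Egr3 had 1588, 1412, 1891, 1655 and 1443 in the high libraries against 1544, 1189, 1612, 1876 and 1611, a log2 difference of 0.04 ± 0.11. Jun differed by 0.06 ± 0.07 and Nr4a3 by 0.12 ± 0.07 (log2 difference ± SE; limma adjusted p = 0.983 and 0.982). Whether Egr3 differed less than Egr1, Egr2 or Egr4 was not tested.

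Early effectors and feedback regulators gave 25 of 27 tested members with a positive difference and a median log2 difference of 0.19. Of the 27, limma called 3 (against 0.04% of all genes) and DESeq2 called 10 higher (against 0.166%). For 11 of the 27 the groups did not overlap, against 0.554% of all genes. Beyond Arc, Dusp1 and Sik1 these were Gadd45b and Gadd45g, which act in DNA demethylation and growth arrest, Trib1, Btg2, Cyr61, Arl4d, Midn and the phosphatase Dusp6. Cyr61, a secreted matricellular protein, stood at 523, 400, 276, 316 and 217 against 145, 216, 146, 95.6 and 114, so OE6 was barely above OE7. Its log2 difference was 1.25 ± 0.25 (SE; limma adjusted p = 0.28). Homer1, whose short form is an activity-induced scaffold, stood between 5838 and 8144 in the high libraries and between 5324 and 7373 in the low ones, with a log2 difference of 0.10 ± 0.10. The gene-level count does not separate that short form from the long ones.

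The median difference in the later wave was close to 0. Of 20 delayed genes, 12 had a positive difference and none was called, with a median log2 difference of 0.02. Bdnf, the neurotrophin, stood at 1869, 1981, 1925, 1679 and 1962 in the high libraries and at 1875, 1991, 1635, 2081 and 1775 in the low ones. The neuropeptide precursor Vgf differed by 0.10 ± 0.07, the pentraxin Nptx2 by 0.04 ± 0.07 and Nrn1 by −0.02 ± 0.05, as log2 differences with SE. An unadjusted limma p below 0.05 was found for 3 of the 20, all with higher means in the high libraries, against 2.45% of all genes. They were Gpr3 (0.33 ± 0.13), Crh (0.36 ± 0.14) and Penk (0.14 ± 0.06), each with limma adjusted p of 0.982. Gpr3, a receptor that raises cyclic AMP, was the only 1 of the 20 whose groups did not overlap, against 0.554% of all genes.

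The median difference of the upstream regulators of the early genes was also close to 0. Of 25 kinases, coactivators and factors such as Creb1 and Srf, 8 had a positive difference, none was called and none had an unadjusted p below the threshold, with a median log2 difference of −0.02. Of 11 glutamate receptor and calcium channel genes, 1 had a positive difference, none was called, and the median was −0.09. At an unadjusted limma p below 0.05, 2 of these 11 were lower, against 1.95% of all genes, and none was higher. Cacna1c, a pore subunit of the L-type calcium channel, differed by −0.12 ± 0.04, and Gria1, an AMPA receptor subunit, by −0.15 ± 0.07 (log2 difference ± SE), each with limma adjusted p of 0.982.

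**Figure D3:**
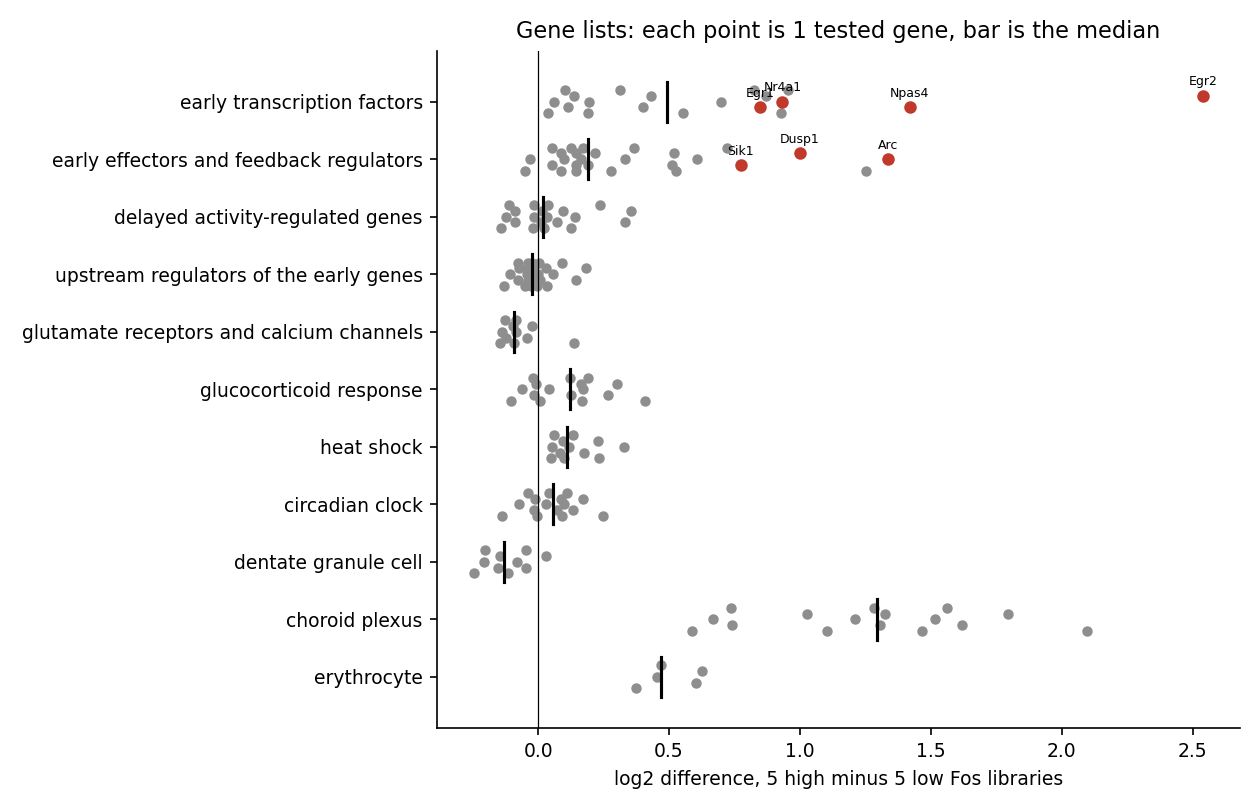
Each point is 1 tested gene placed by its log2 difference, high minus low Fos libraries, in 11 gene lists, with a bar at the median of the list and the 7 called genes in red. The early lists reach to 2.54 (Egr2), and the delayed and upstream lists have medians near 0. Of the 11 receptor and channel genes 1 lies above 0 (median −0.09), and the 16 choroid plexus genes lie to the right with none called.

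Lists of other responses were described in the same way. Heat shock genes had a positive difference for 12 of 12 members, none called by limma, with a median log2 difference of 0.11, and the largest was the co-chaperone Dnajb1 at 0.33 ± 0.07 (SE; limma adjusted p = 0.484). Dnajb1 was called by DESeq2 (adjusted p = 0.0217) and by the limma slope over all 15 offspring (adjusted p = 0.0324). At an unadjusted limma p below 0.05, 3 of the 12 heat shock genes were higher, against 2.45% of all genes, and none was lower. For 1 of the 12 the groups did not overlap, against 0.554% of all genes. Glucocorticoid response genes gave 11 of 16 positive, none called, with a median of 0.12, and the cell cycle inhibitor Cdkn1a differed most, by 0.41 ± 0.11 (adjusted p = 0.982 by limma). At an unadjusted limma p below 0.05, 5 of the 16 were higher, against 2.45% of all genes, and none was lower. For 2 of the 16 the groups did not overlap, with the high libraries above, against 0.554% of all genes. This list shares Errfi1, Per1 and Nfkbia with the early effectors. Circadian clock genes gave 10 of 16 positive, none called, and a median of 0.06. Dentate granule cell markers gave 1 of 10 positive, none called, and a median of −0.13.

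Choroid plexus, the epithelium that secretes cerebrospinal fluid and can be taken along in a hippocampal dissection, had higher means in the high libraries. Of its 16 markers, 16 had a positive difference, none was called and none had an unadjusted p below the threshold, with a median log2 difference of 1.29. Their summed normalized count ranged from 42481 to 214939 in the high libraries and from 3715 to 200825 in the low ones, and no marker was at 0 in all 10. With the mean of this list as a covariate, Sik1, Arc, Nr4a1, Egr2 and Egr1 were called (limma adjusted p from 0.0128 for Arc to 0.0387 for Egr1), while Npas4 and Dusp1 had an adjusted p of 0.0921. Erythrocyte genes gave 5 of 5 positive with a median of 0.47, none called, and summed counts of 468 to 9682 against 726 to 2184. Their part in the differences was not tested.

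Of 8 striatal markers, 6 had a positive difference, none called, with a median of 0.22. The lists for pan-neuronal, astrocyte, oligodendrocyte, oligodendrocyte precursor and microglial genes had medians between −0.02 and 0.07, with no gene called. Vascular and other lists had negative medians, with no gene called. Mural cell markers gave 0 of 8 positive with a median of −0.16, endothelial markers 2 of 12 with −0.05, meningeal fibroblast markers 3 of 12 with −0.11 and CA1 pyramidal cell markers 1 of 8 with −0.08.

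Using the slope on log2 Fos over all 15 offspring in place of the 2 sets, limma called 19 genes (0.108% of 17521), all positive, and 16 of them belong to the 2 early lists. Sik1 was not among them, and it was called (22 genes in all) when libraries with shared titles were taken as a random block, a fit added after the data had been seen. The 10 genes with the highest Spearman correlation with Fos over the 15 offspring were Arc (0.989), Egr2 (0.971), Junb (0.954), Nr4a1 and Egr1 (0.950 each), Gadd45b and Ier2 (0.939 each), Cyr61 and Trib1 (0.929 each) and Egr4 (0.925). All 10 belong to the early lists, and the points share the libraries that chose the contrast. DESeq2 on the recovered reads called 30 genes between the 2 sets, 29 higher (0.166%) and 1 lower (0.00572%), the interferon-inducible GTPase gene Gvin1. Of these 30, 18 belong to the early lists, and these include the 7 genes named above. The rest include the mitochondrial ribosomal RNAs mt-Rnr1 (log2 difference 0.32, DESeq2 adjusted p = 0.0301) and mt-Rnr2 (0.26, 0.0499), for which high and low libraries overlapped. The cause of their difference was not tested.

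Outside the lists, 1700016P03Rik was called by both of these fits. It was chosen for this paragraph after its values were seen. It is a noncoding transcript annotated on chromosome 11 between 75172560 and 75177633 on the plus strand, and the hairpins of miR-212 and miR-132 lie inside it. Its normalized count was 55.3, 64.7, 38.8, 42.1 and 43.97 in the high libraries against 18.04, 28.3, 17.3, 4.78 and 6.95 in the low ones, with no overlap. The log2 difference was 1.85 ± 0.39 (SE; limma adjusted p = 0.484), and DESeq2 gave an adjusted p of 0.00526. The mature 3p forms are shown, from RefSeq, because both carry the same seed (bases 2 to 8, in capitals), and the libraries hold mRNA, so neither mature form was measured.
mmu-miR-132-3p: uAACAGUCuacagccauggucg
mmu-miR-212-3p: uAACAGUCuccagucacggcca
Apold1, an early response gene of endothelial cells, was also called by both fits, at 251 against 127 mean normalized counts and a log2 difference of 0.99 (DESeq2 adjusted p = 6.49e-05).

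The question of whether these genes also follow Fos in hippocampi that were not used to choose them was put first to the 8 fathers. Their Fos was 217.74, 197.79, 305.47 and 316.83 in SF1 to SF4 and 215.34, 416.32, 221.35 and 242.18 in EF1 to EF4, a narrower range than in the offspring. Slopes on log2 Fos were fitted with limma for 17492 genes, with the exercise group as a term. The 7 genes had 7 positive slopes with a median of 0.37 log2 units per log2 unit of Fos, against 50.3% positive and a median of 0.0006 for all genes. None passed the adjusted threshold, and no other gene did (smallest limma adjusted p = 0.868, 571 genes or 3.26% at an unadjusted p of 0.05). edgeR called none, and DESeq2 called 3 with a positive slope (0.0172%) and 2 with a negative one (0.0114%). At an unadjusted p of 0.05, 4 of the 7 were positive, against 1.15% of all genes, and none was negative, against 2.12%.

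Dusp1 had a slope of 0.58 ± 0.10 (SE; limma adjusted p = 0.909), and its normalized count was highest in EF2 (717), the father with the highest Fos, and lowest in SF2 (441), the father with the lowest. Arc had a slope of 0.45 ± 0.08, Nr4a1 of 0.37 ± 0.09 and Egr2 of 1.04 ± 0.26, each with a limma adjusted p of 1.00. Egr1 had a slope of 0.14 ± 0.11, Npas4 of 0.19 ± 0.27 and Sik1 of 0.26 ± 0.13 (slope ± SE). DESeq2, on the recovered reads, called Arc (adjusted p = 0.0152) and Dusp1 (adjusted p = 0.0251) in the fathers.

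The slopes in the fathers depend on EF2. Without it, 5 of the 7 slopes were positive with a median of 0.26. Arc (0.26 ± 0.10) and Dusp1 (0.49 ± 0.16) were then the 2 of the 7 with an unadjusted p below the threshold and a positive slope, against 6.83% of all genes, and Egr1 had a slope of −0.12 ± 0.14 and Npas4 of −0.12 ± 0.42. Choroid plexus markers had a positive slope in 16 of 16 in the fathers, with a median of 2.76, and erythrocyte genes in 5 of 5 with a median of 1.45. Positive slopes were also found for 12 of 12 endothelial (median 0.25), 8 of 8 mural (0.34) and 12 of 12 meningeal fibroblast markers (0.48), and for 0 of 10 dentate granule cell (−0.19) and 0 of 10 oligodendrocyte markers (−0.19). At that threshold 2 of the 12 endothelial and 2 of the 8 mural markers were positive. Of the 10 dentate granule cell markers 4 were negative, against 2.12% of all genes. The part of these lists in the slopes was not tested, apart from the choroid plexus and thalamus covariates. With the choroid plexus mean as a covariate, 7 of the 7 slopes were positive, with a median of 0.43, and Arc stood at 0.55 ± 0.08.

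By the rule for named genes, the fathers' other small p-values were those of Slco1a4, an organic anion transporter of brain endothelium (slope 0.54 ± 0.11), Sap18b (0.76 ± 0.16) and the noncoding Foxl2os (1.65 ± 0.37) with positive slopes. With negative slopes they were those of the axonemal dynein heavy chains Dnah3 (−1.27 ± 0.17) and Dnah12 (−1.08 ± 0.18), the leucine-rich repeat gene Lrrc71 (−1.18 ± 0.24) and 2 unclassified transcripts. Of these genes DESeq2 called Slco1a4, Dnah3 and Dnah12.

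Adding the middle 5 offspring gave 13 libraries that the contrast did not use, fitted with a term for each of the 4 groups. This fit was added after the data had been seen. Among the middle 5, OE2 and OE3 have titles that differ only in the last character from those of OE1 and OE4, which the contrast used. These 13 libraries are therefore not fully separate from those that chose the genes. The 7 genes again had 7 positive slopes, with a median of 0.54 against −0.003 for all genes, of which 48.6% were positive. At an unadjusted p of 0.05, 5 of the 7 were positive (Dusp1, Arc, Egr2, Nr4a1 and Sik1) against 3.07% of all genes, and none negative against 2.45%. Dusp1 had a slope of 0.61 ± 0.08, with the smallest limma adjusted p of any gene (0.0852), and no gene of 17503 was called, with 966 (5.52%) at an unadjusted p of 0.05. Arc had a slope of 0.54 ± 0.10, Egr2 of 1.103 ± 0.24, Nr4a1 of 0.48 ± 0.12 and Sik1 of 0.59 ± 0.23. Egr1 had 0.15 ± 0.09 and Npas4 0.06 ± 0.25 (slope ± SE).

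In these 13 libraries the choroid plexus markers also moved with Fos, with 16 of 16 positive and below the unadjusted threshold and a median slope of 3.47. Positive slopes were found for 8 of 8 mural (median 0.27), 12 of 12 meningeal fibroblast (0.35) and 11 of 12 endothelial markers (0.17), and for 0 of 10 dentate granule cell markers (−0.18, 5 of them negative at an unadjusted p of 0.05) and 0 of 10 oligodendrocyte markers (−0.18, 2 of them so). With the mean of the choroid plexus markers as a covariate, 7 of the 7 slopes were positive, with a median of 0.35. Arc (0.53 ± 0.13), Egr2 (1.25 ± 0.30), Nr4a1 (0.35 ± 0.14), Egr1 (0.24 ± 0.10) and Dusp1 (0.62 ± 0.10) were then positive with an unadjusted p below the threshold, against 1.06% of all genes, and Sik1 (0.29 ± 0.24) was not. Without EF2, 6 of the 7 slopes were positive and the same 5 genes as without the covariate had an unadjusted p below the threshold, against 8.46% of all genes. Egr1 then had a slope of 0.00 ± 0.11 and Npas4 of −0.23 ± 0.33. Without OS8, 7 of the 7 slopes were positive, with a median of 0.37. Arc, Nr4a1, Egr2 and Dusp1, but not Sik1, then had an unadjusted p below the threshold, against 1.19% of all genes.

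**Figure D4:**
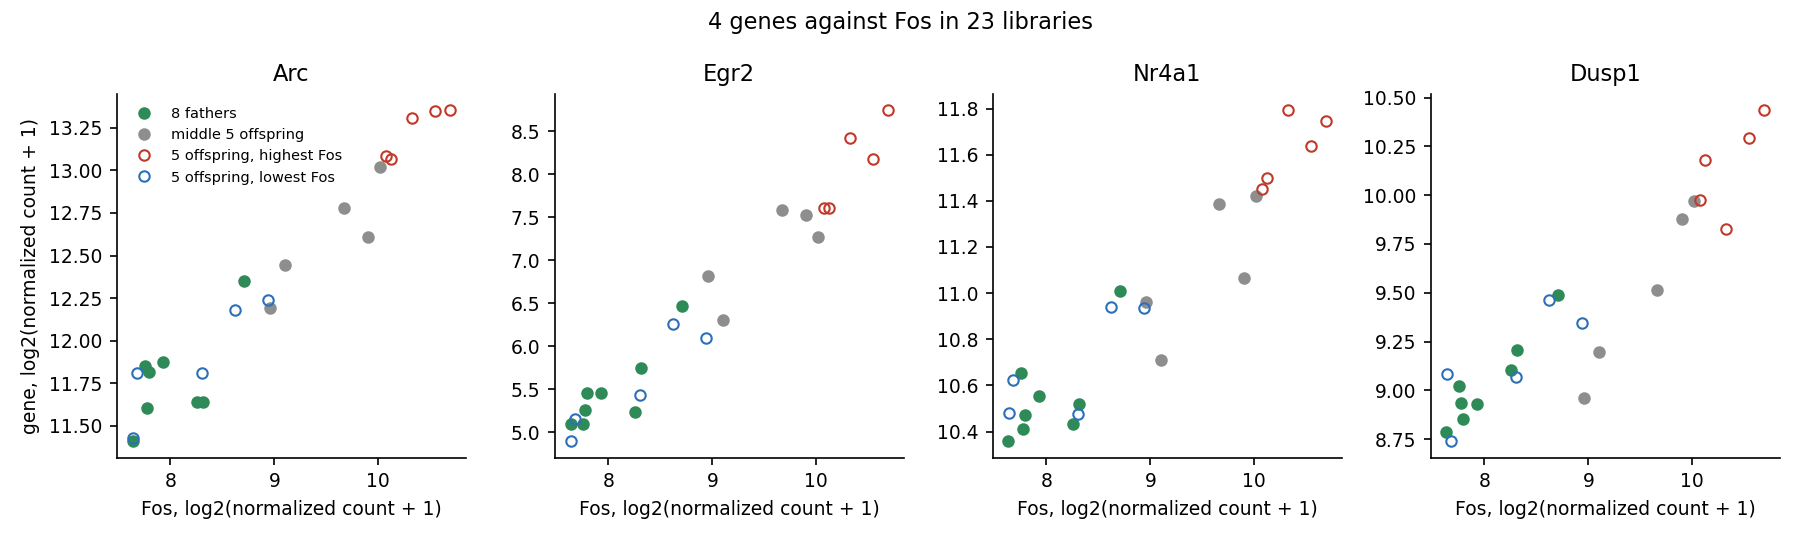
The panels plot Arc, Egr2, Nr4a1 and Dusp1 against Fos, both as log2(normalized count + 1), with 1 point per library. Filled points are the 8 fathers and the middle 5 offspring, which the contrast did not use, and open points are the high and low offspring, and EF2, the father with the most Fos (416.32), is also the highest father in all 4 panels.

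**Figure D5:**
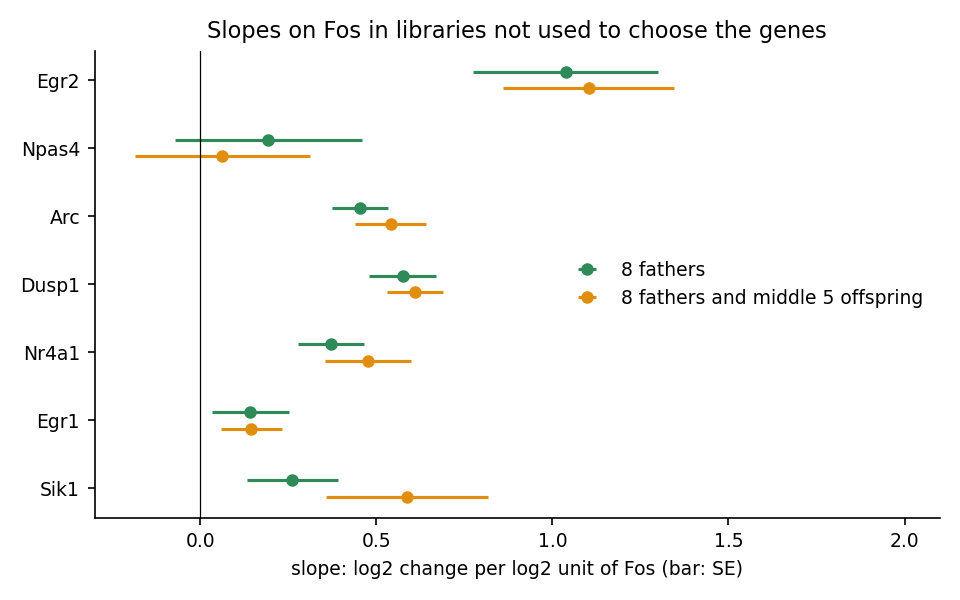
Points are limma slopes in log2 units per log2 unit of Fos, with bars for the SE, in the 8 fathers (with an exercise term) and in the 8 fathers and middle 5 offspring (with 4 group terms). Egr2 is the steepest at 1.04 and 1.103, and the intervals of Npas4 (0.19 and 0.06) span 0 in both.

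The early lists as a whole, with the called genes among their members, were described in the same libraries. In the fathers, the early transcription factors gave 16 of 20 positive slopes with a median of 0.17, and the early effectors 18 of 27 with a median of 0.09. In the 13 libraries these were 16 of 20 with a median of 0.19 and 20 of 27 with a median of 0.11. The 20 include 4 called genes and the 27 include 3, all with positive slopes given above, so these counts are not separate from those. Ier2 (0.52 ± 0.13) and Junb (0.44 ± 0.09) had slopes in the 13 libraries with unadjusted p-values of 0.000381 and 0.00048, and limma adjusted p-values above the threshold. Cyr61, among the strongest in the offspring contrast, had a slope of 0.05 ± 0.20 there. The delayed genes gave 6 of 20 positive with a median of −0.08. At an unadjusted limma p of 0.05, 3 of these 20 were negative, against 2.45% of all genes, and none was positive.

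The Fos means of the labelled groups differed by less than their spread. In the offspring, Fos averaged 807 ± 460 for exercised fathers (SD, n = 7) and 802 ± 506 for sedentary fathers (SD, n = 8), a log2 difference of 0.04 (exact two-sided permutation p = 0.948). In the fathers it averaged 274 ± 95.7 in exercised and 259 ± 60.4 in sedentary animals (SD, n = 4 each), a log2 difference of 0.05 (exact two-sided permutation p = 0.857, smallest possible 0.0286). The 3 offspring pairs with shared titles were treated as separate libraries. The sign of both differences changes with single libraries left out.

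Whether genes follow Fos differently in the offspring of exercised and sedentary fathers was asked with an interaction term over the 15 offspring. No gene of 17521 was called by limma (729 or 4.16% at an unadjusted p of 0.05, smallest adjusted p = 0.770), and no other tool was run for this term. For Arc the slope differed by 0.04 ± 0.07 (exercised minus sedentary paternal group, SE), for Egr2 by −0.15 ± 0.14 and for Dusp1 by −0.14 ± 0.09, each with a limma adjusted p of 0.992.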

How the data were processed

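Hippocampal mRNA of 23 libraries was sequenced from stranded, oligo-dT selected libraries, per the labels' protocols. GRCm38 and the tools RSEM 1.2.28, STAR 2.5.2a and DESeq2 1.10 are listed, with no roles, in the submitters' processing notes. The authors deposited gene counts divided by 1 size factor per library, a signal on the scale of counts, with 1 table for fathers and 1 for offspring. Dividing each column by the value of 1 read left 100% of nonzero values at most 0.1 from an integer in all libraries, and these recovered reads entered edgeR and DESeq2. Totals ran from 33667580 to 50746570 reads in the offspring and from 40124885 to 55172616 in the fathers. The sources used here give no molecular identifiers, so reads are not taken as independent molecules.

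Libraries were grouped by the labels, and the offspring ordered by Fos. Replicate numbers follow accession order and pair nothing. limma 3.58.1 in R 4.3.3 (empirical Bayes with trend, two-sided, Benjamini-Hochberg over all genes tested) was run on log2(normalized count + 1), for genes with a value of at least 10 in at least 5 of the 10 offspring or 4 of the 8 fathers, with Fos left out. Differences on this scale understate the change of low genes. Alternatives were edgeR 4.0.16 (quasi-likelihood, TMM), DESeq2 1.42.0, other pseudocounts, filters, scalings, covariates, orderings and libraries. The fits were tested on simulated data. Exact permutation tests used scipy 1.17.1. Genes were to be named if called with no overlap between the sets, up to 15 higher and 10 lower, together with all members of the activity lists, the 5 smallest p-values of each sign in the fathers and the 10 genes most correlated with Fos. The members, lists and tests were chosen with earlier results of these data known.

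Coordinates are those of GENCODE M21 on GRCm38, in which 47648 of the 51912 identifiers had the same version and 51633 matched without it. Promoter windows of chromosome 18 were not used, and RefSeq windows that overlap an annotated exon are not printed. Arc, Sik1 and Ier2 have no promoter sequence shown.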

Additional observations from a re-analysis of the deposited data

Results flagged for a closer look

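Libraries were checked for values far from the rest of their group in 45 sets of values, each 1 gene or list in 1 group, and chance flags about 1 in 20 of such sets. Both sets flagged concern replicate 2 of the exercised fathers. Fos stood at a normalized count of 416.32 there, with the other 3 exercised fathers between 215.34 and 242.18. Arc stood at 5232.47, with the other 3 between 3611.28 and 3756.94. This library has the highest Fos of the 8 fathers, so the slopes in the fathers are also given without it.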

How the results depend on the processing

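The 7 genes called in the offspring with high Fos were also the 7 called by edgeR, with pseudocounts of 0.5 and 8, with a filter at 50, with TMM scaling and with the paternal group as a covariate, and all 7 were called by DESeq2, which called 30. Ordering by Egr1 gave 4 genes, 6 against 6 libraries gave 12, the slope over 15 offspring gave 19, and the slope over the 13 libraries not used gave 0. Leaving out each library gave 4 to 10. Ordering by Arc gave 9 genes without Egr1, the thalamus covariate gave 10, and no filter gave 8, with Gm12473 lower. Sik1 was not called with the order by Egr1 or with the slope over 15 offspring, Nr4a1 and Dusp1 were not called with the order by Egr1, and Npas4 and Dusp1 were not called with 4 against 4 libraries, which gave 5 genes. The cause was not tested. In the fathers DESeq2 called 5 genes against 0, and leaving out each library gave 0 to 2, with Isl1 and Coch called without EF2. In the 13 libraries it gave 0 to 3, with Dusp1 called without EF1 and 3 genes without EF2. For the slope difference between paternal groups it gave 0 to 2, with 2 genes called without OE1. The log2 difference of Fos between paternal groups was 0.04 and ranged from −0.20 to 0.33 with each library left out, and that between father groups was 0.05 and ranged from −0.17 to 0.16. No paired analysis was possible because replicate numbers were given in accession order and pair no samples. With shared titles as a random block the slope over 15 offspring gave 22 genes and the slope difference 0; between the 5 high and 5 low libraries this fit was not run, since 1 pair of the 10 shares a title. Leaving out the AD21 barcodes removes none of the 10. Genes with a value of at least 10 in fewer than 5 of the 10 libraries were not tested in the main fit. They could enter the fit without a filter, and fits on other sets of libraries, where the required number of libraries was set anew.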
